A study of Xenopus laevis with 6 samples.

Results

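The genes atf4, ddit3, xbp1, hspa5 and dnajb9 of the unfolded protein response and the integrated stress response were followed in EU-captured RNA of Xenopus laevis embryos whose protein synthesis had been blocked. Xenopus laevis is an allotetraploid frog that carries many genes as an L and an S copy (homeologs), so the 5 genes gave 10 rows, chosen by their gene symbols from 50489 rows in all. The embryos were wild type and, per the labels, at the blastula stage. Each had received 10 nl of 50 mM 5-ethynyl uridine (EU) by injection as a single cell, for about 0.5 mM in the embryo, and was raised at 22 °C. New transcripts take up EU in place of uridine, which allows biotin to be attached and the labelled RNA to be captured on streptavidin beads. The 6 libraries fell into 3 groups of 2. The first group was treated with cycloheximide (CHX), which blocks translation, at 0.2 mg/ml between 5 and 7.5 hours post fertilization (hpf), and was collected at 7.5 hpf. The controls received EU and no CHX and were collected at 7.5 hpf or at 5 hpf, and the labels name no vehicle. All replicates came from 1 clutch and 1 labelled batch, and the sources used here do not give the number of embryos in a library. The p-values therefore measure the spread between these libraries and not between clutches. Because EU was present from the 1-cell stage, RNA captured at 7.5 hpf can include RNA made before 5 hpf.

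The unfolded protein response senses misfolded proteins in the endoplasmic reticulum (ER) through the membrane proteins Ire1, Perk and Atf6. Ire1 splices xbp1 mRNA into the form that encodes an active transcription factor, Atf6 is cut to release another, and Perk phosphorylates the translation factor eIF2. Phosphorylated eIF2 slows translation in general while the mRNA of atf4 is translated more, and Atf4 in turn switches on genes such as ddit3, which encodes the factor Chop. hspa5 encodes BiP, the main Hsp70 chaperone of the ER, and dnajb9 encodes ERdj4, a BiP co-chaperone known in mammals as a target of Xbp1. Captured RNA per gene shows neither the splicing of xbp1 nor the translation of atf4, so neither was measured.

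Normalized values summed to 6680033 to 7742693 in a library. The steps between low values put the worth of 1 read at an estimated 0.446 to 2.31 units, which corresponds to 2940000 to 15880000 reads, with the 5 hpf libraries the shallowest. In those libraries no gene had a value of 1, against 991 and 1461 genes at a value of 2, so 1 read was worth more than 1 unit there. Replicates correlated across genes with r = 0.927 under CHX, 0.853 in the 7.5 hpf controls and 0.921 at 5 hpf, where genes are not independent replicates. As a check of the stage, 46 rows of blastula regulators summed to 60996 and 49760 under CHX, to 103429 and 53057 in the 7.5 hpf controls and to 18155 and 18638 at 5 hpf. Control 7.5 hpf replicate 1 thus held far more of this RNA than replicate 2. Of the 45 tested regulators, limma called 35 higher under CHX than at 5 hpf, where 5.75% of all genes were. It called 38 higher in the 7.5 hpf than in the 5 hpf controls, where 5.9% of all genes were. Under CHX, 1 was called higher and 1 lower than in controls of 7.5 hpf, where 0.198% and 0.355% of all genes were. A list of 38 tested oocyte transcripts, RNA stored in the egg before EU was given, was also examined. Of these, 2 were called lower in the 7.5 hpf than in the 5 hpf controls, where 0.715% of all genes were. None was called for CHX against control at 7.5 hpf or CHX against 5 hpf, where 0.554% and 6.01% of all genes were. The 40 rows of the oocyte list summed to 28338 and 28529 under CHX, 26488 and 29091 in the 7.5 hpf controls and 31083 and 30535 at 5 hpf. The captured RNA was thus not free of RNA made before EU was given, as far as these genes are not transcribed in the embryo, and how much of a value below is such RNA was not tested.

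Of the 10 genes, 8 passed the filter on low values, a mean of at least 11.9, and both ddit3 copies did not. The lowest group mean among the 8 was 24, so none passed through 1 group alone. Against control embryos of the same age, none of the 8 was called different under CHX, in a comparison that called 0.554% of the 19149 genes tested. Against 5 hpf, 3 of the 8 were called under CHX, atf4.L and xbp1.S higher and dnajb9.S lower, where 6.01% of all genes were called. The 7.5 hpf against the 5 hpf controls called the same 3 genes in the same directions, where 6.61% of all genes were called. These comparisons share libraries, so their calls are not independent of each other. Values are the authors' normalized read counts, given for replicate 1 and then replicate 2. Each library was scaled by its own size factor, so a rise or fall below is relative to the other captured RNA in the library. The amount of captured RNA per embryo cannot be read from these values. Fold changes were computed after adding 1 and taking log2, so those of low genes are understated. In whole embryos a change in the number of cells that make a transcript cannot be told apart from a change in RNA per cell. L and S copies may share reads, and the sources used here do not say how the quantification divided these.

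**Figure D1:**
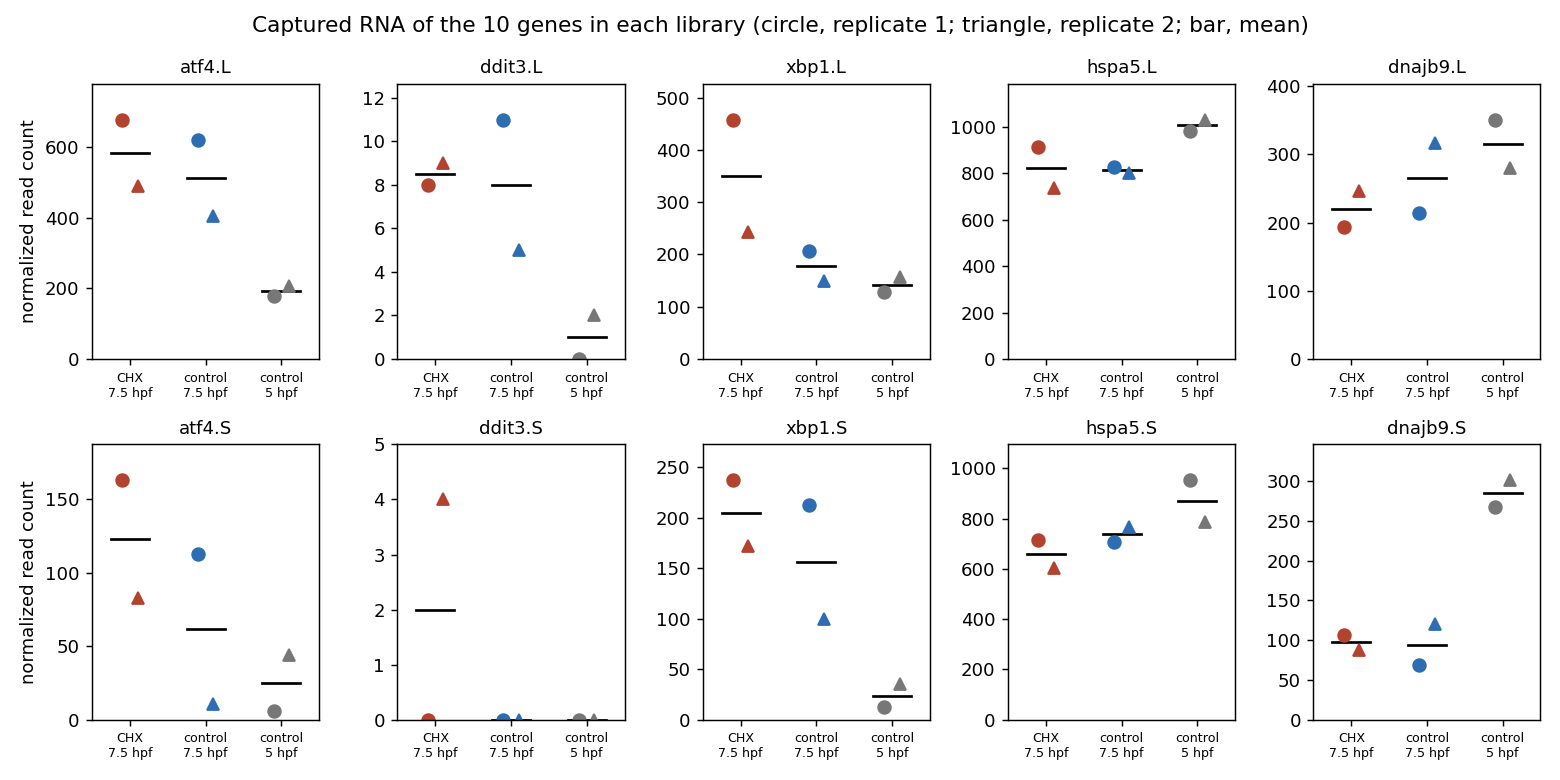
Normalized read count (vertical axis, each panel with its own scale from 0) of the 10 genes in the CHX 7.5 hpf, control 7.5 hpf and control 5 hpf libraries; circles are replicate 1, triangles replicate 2 and bars the mean of 2. atf4.L lies between 405 and 678 in the 4 libraries of 7.5 hpf and at 179 and 208 at 5 hpf, while dnajb9.S lies between 69 and 120 at 7.5 hpf and at 268 and 301 at 5 hpf.

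atf4.L encodes the transcription factor through which phosphorylated eIF2 acts on genes. It was listed at 678 and 490 in CHX embryos, at 621 and 405 in controls of 7.5 hpf and at 179 and 208 in controls of 5 hpf. Both groups of 7.5 hpf lay above the 5 hpf libraries, and they overlapped with each other. The mean was 584 ± 133 under CHX, 513 ± 153 in 7.5 hpf controls and 193.5 ± 20.5 at 5 hpf (SD, n = 2 each). Relative to 5 hpf, atf4.L rose 2.98-fold under CHX (log2 fold change 1.57 ± 0.26, SE; limma adjusted p = 0.00347). In the controls it rose 2.59-fold over the same interval (1.37 ± 0.26, limma adjusted p = 0.00831). CHX and control embryos of 7.5 hpf differed by 0.20 on the log2 scale, with a 95% interval from -0.37 to 0.77 (limma adjusted p = 0.869), which leaves room for a fold difference between 0.776 and 1.70.

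atf4.S, the second copy, was listed at 163 and 83 under CHX, at 113 and 11 in 7.5 hpf controls and at 6 and 44 at 5 hpf. Both CHX values lay above both 5 hpf values, but the 7.5 hpf controls overlapped with each of the other groups. The low 5 hpf value of 6 corresponds to an estimated 3.25 reads. The log2 fold change of CHX over 5 hpf was 2.73 ± 1.11 and was not called (limma adjusted p = 0.243). Its 95% interval, from 0.26 to 5.19, was wide, and replicates differed severalfold in both control groups. With the L and S values summed for every gene before the fit, atf4 stood 1.68 ± 0.30 higher on the log2 scale under CHX than at 5 hpf (limma adjusted p = 0.00749), and 1.35 ± 0.30 higher in 7.5 hpf than in 5 hpf controls (adjusted p = 0.0222).

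ddit3 encodes Chop, a factor of the C/EBP family that Atf4 induces and that is linked to cell death in prolonged stress. ddit3.L was low in every library, at 8 and 9 under CHX, 11 and 5 in 7.5 hpf controls and 0 and 2 at 5 hpf. Each 7.5 hpf value lay above both 5 hpf values, and the CHX values lay within the range of the 7.5 hpf controls. At 5 hpf the 0 in replicate 1 allows a value of up to 5.54 (3 reads, counting error only), the 2 in replicate 2 corresponds to an estimated 0.866 reads, and the 7.5 hpf values of 5 to 11 lay close to that limit. Without the filter on low values, the 2.45 ± 1.25 log2 difference of CHX from 5 hpf was not called (limma adjusted p = 0.522). ddit3.S was listed at 0 and 4 under CHX and at 0 in all 4 control libraries, where 3 reads would have given values between 2.06 and 6.93.

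xbp1 encodes the transcription factor of the Ire1 branch. Its S copy was listed at 237 and 172 under CHX, at 213 and 100 in 7.5 hpf controls and at 13 and 35 at 5 hpf. All 4 libraries of 7.5 hpf lay well above the 5 hpf libraries. The 5 hpf values correspond to an estimated 7.03 and 15.2 reads, so the folds against 5 hpf rest on few reads. The group means were 204.5 ± 46.0 under CHX, 156.5 ± 79.9 in 7.5 hpf controls and 24 ± 15.6 at 5 hpf (SD, n = 2). Relative to 5 hpf, xbp1.S rose 9.04-fold under CHX (log2 fold change 3.18 ± 0.56, limma adjusted p = 0.00566) and 6.55-fold in the controls (2.71 ± 0.56, limma adjusted p = 0.0145). Without control 5 hpf replicate 1 the log2 values were 2.495 under CHX and 2.03 in the controls, and without replicate 2 they were 3.86 and 3.39. The difference between CHX and control at 7.5 hpf was 0.46 on the log2 scale, with a 95% interval from -0.77 to 1.70 (limma adjusted p = 0.855).

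xbp1.L was the single gene of the 8 in which CHX and control embryos of 7.5 hpf had an unadjusted p under 0.05, as 8.23% of all genes tested had. It was listed at 458 and 242 in CHX embryos, at 207 and 150 in controls of 7.5 hpf and at 128 and 157 in controls of 5 hpf. Both CHX values lay above all 4 control values, and the control groups overlapped. CHX stood 0.91 ± 0.34 above the 7.5 hpf controls on the log2 scale (95% interval 0.16 to 1.67), which was not called over all genes (limma adjusted p = 0.486). Leaving out 1 library moved this value between 0.46, without CHX replicate 1, and 1.37, without CHX replicate 2. Against 5 hpf the CHX embryos were at a log2 fold change of 1.23 ± 0.34, also short of the threshold (limma adjusted p = 0.0664). That value passed at a pseudocount of 5 (adjusted p = 0.0459), in a fit blocked on replicate number (0.0361) and with library weights (0.0336). It did not with no filter on low genes (0.173) or without any 1 library, where the log2 value lay between 0.77 and 1.69 and the adjusted p between 0.0949 and 0.666. For the summed copies of xbp1 the log2 fold change from 5 hpf was 1.70 ± 0.33 under CHX (limma adjusted p = 0.0115) and 0.97 ± 0.33 in the controls (adjusted p = 0.116). Compared directly at 7.5 hpf, the summed copies differed by 0.73 ± 0.33 between CHX and control, which was not called (limma adjusted p = 0.569).

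hspa5 encodes BiP, whose transcripts increase in mammals when unfolded protein accumulates in the ER. The L copy was listed at 912 and 737 under CHX, at 825 and 802 in 7.5 hpf controls and at 982 and 1031 at 5 hpf. CHX and control embryos of 7.5 hpf overlapped, and both lay below the 5 hpf libraries. CHX differed from control at 7.5 hpf by 0.01 ± 0.16 on the log2 scale (limma adjusted p = 0.989), and the 95% interval bounded the fold difference between 0.790 and 1.29. Relative to 5 hpf the log2 difference was -0.30 under CHX and -0.31 in 7.5 hpf controls (limma adjusted p = 0.432 and 0.33), neither of them called.

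hspa5.S had values of 714 and 602 in CHX embryos, 708 and 767 in 7.5 hpf controls and 952 and 788 in 5 hpf controls. Again the 7.5 hpf groups overlapped and lay below 5 hpf. The CHX to control difference at 7.5 hpf was -0.17 ± 0.17 (limma adjusted p = 0.822), with a 95% interval that bounded the fold between 0.684 and 1.16. For CHX against 5 hpf the difference was -0.40 ± 0.17 and was not called (limma adjusted p = 0.273). Of the 8 tested genes, the hspa5 copies had the narrowest intervals. Between CHX and control embryos of 7.5 hpf these did not reach 2-fold in either direction. The same held for atf4.L (fold 0.776 to 1.70), dnajb9.L (0.555 to 1.27) and dnajb9.S (0.616 to 1.84). The intervals of atf4.S, xbp1.L and xbp1.S reached past 2-fold. Each interval was not adjusted for the 8 genes and rests on 2 libraries a group, so a 2-fold difference is not excluded.

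dnajb9 encodes the BiP co-chaperone ERdj4, which in mammals helps to deliver substrates to ER-associated degradation and holds Ire1 in check. dnajb9.S was listed at 107 and 88 under CHX, at 69 and 120 in 7.5 hpf controls and at 268 and 301 at 5 hpf. The 4 libraries of 7.5 hpf lay below both 5 hpf libraries, and the CHX values lay within the range of the 7.5 hpf controls. The mean was 97.5 ± 13.4 under CHX, 94.5 ± 36.1 in 7.5 hpf controls and 284.5 ± 23.3 at 5 hpf (SD, n = 2). Against 5 hpf, dnajb9.S fell by 1.54 ± 0.36 on the log2 scale under CHX (0.344-fold, limma adjusted p = 0.0284) and fell by 1.63 ± 0.36 in the controls (0.323-fold, adjusted p = 0.02). CHX and control at 7.5 hpf differed by 0.09 on the log2 scale, with a 95% interval from -0.70 to 0.88 (limma adjusted p = 0.961).

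dnajb9.L was listed at 194 and 246 under CHX, 214 and 316 in 7.5 hpf controls and 351 and 280 at 5 hpf. The CHX values lay below the 5 hpf values, and the 7.5 hpf controls overlapped with both. The log2 difference was -0.52 ± 0.27 for CHX against 5 hpf (limma adjusted p = 0.406) and -0.27 ± 0.27 for the controls (adjusted p = 0.641), and neither was called. For the summed copies dnajb9 fell by 0.92 ± 0.23 on the log2 scale relative to 5 hpf under CHX (limma adjusted p = 0.0426), while the value in the controls was -0.77 ± 0.23 and missed the threshold (adjusted p = 0.0767). Compared directly at 7.5 hpf, the summed copies differed by -0.15 ± 0.23 between CHX and control, which was not called (limma adjusted p = 0.88).

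**Figure D2:**
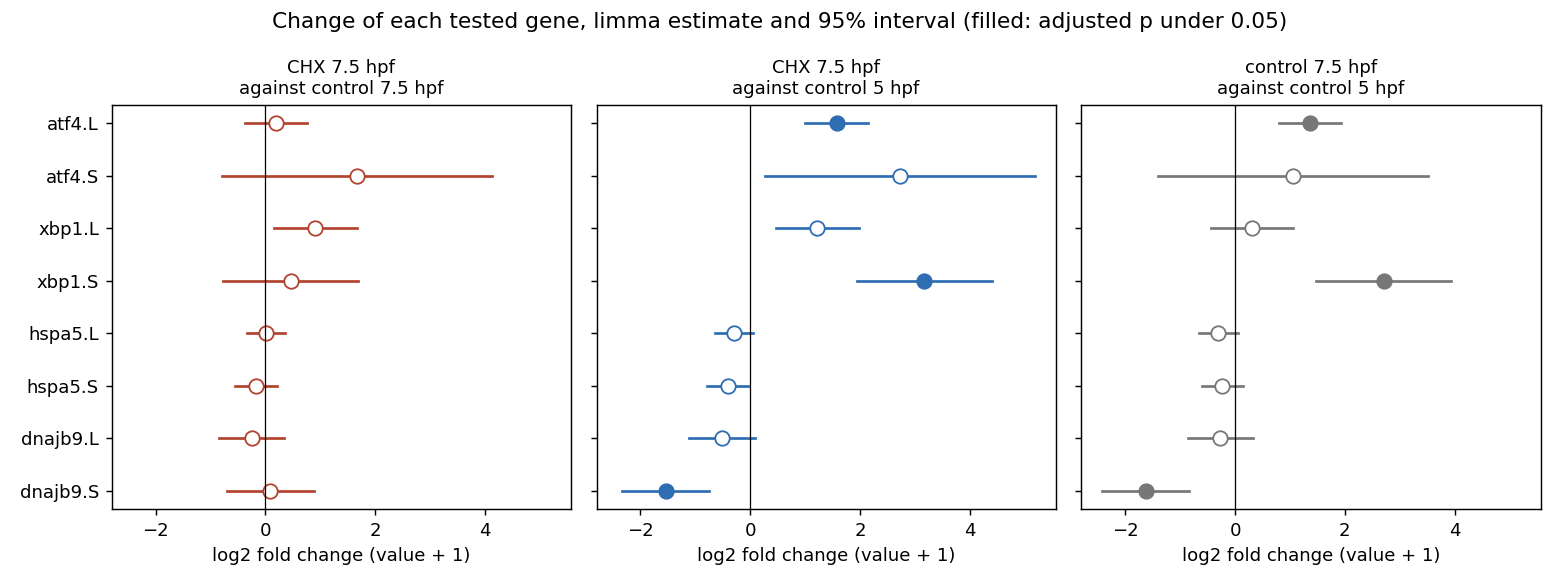
Log2 fold change (horizontal axis, limma estimate as a point, 95% interval as a line) of the 8 tested genes in the 3 comparisons; filled points have an adjusted p under 0.05. Filled points appear for atf4.L and xbp1.S to the right of 0 and dnajb9.S to the left in both comparisons with 5 hpf, and there is none for CHX against control at 7.5 hpf.

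With so few genes called between CHX and control at 7.5 hpf, 0 of 8 is near the background, and the median log2 fold change of the 8 was 0.15 there, against 0.02 over all genes. In CHX against 5 hpf, 2 of 8 were called higher and 1 lower, where 5.75% and 0.256% of all genes were. In the 7.5 hpf against the 5 hpf controls, again 2 of 8 were higher and 1 lower, where 5.9% and 0.715% of all genes were. The genes were not drawn at random, so these shares describe them and are no test.

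The 3 calls against 5 hpf kept their direction but depended on the libraries. Without CHX replicate 1 or replicate 2, the CHX against 5 hpf calls were lost for atf4.L (limma adjusted p = 0.186 and 0.0624), xbp1.S (0.263 and 0.131) and dnajb9.S (0.249 and 0.261). The dnajb9.S call was also lost without control 5 hpf replicate 1 or replicate 2 (0.141 and 0.188), and with no filter on low genes (0.0801). In the controls, the atf4.L and xbp1.S calls were lost without control 7.5 hpf replicate 1 (0.105 and 0.179), control 5 hpf replicate 1 (0.0787 and 0.0853) or either CHX library (0.0549 to 0.111), and that of dnajb9.S in each fit that omitted 1 library other than control 7.5 hpf replicate 2 (0.0901 to 0.148). In each of these fits fewer of all genes were called too, so the losses were not particular to these 3 genes. The RNA of blastula regulators was higher in replicate 1 than in replicate 2 of the 7.5 hpf controls and of the CHX embryos. So were atf4.L, atf4.S, xbp1.L and xbp1.S. hspa5.L, which was not called against 5 hpf, had the same order (912 and 737 under CHX, 825 and 802 in 7.5 hpf controls). The part of the regulators' RNA in the results was not tested.

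The log2 ratio of L to S was called for none of the 4 genes with both copies tested, in any of the 3 comparisons in limma. At an unadjusted p under 0.05 there were 2, xbp1 and dnajb9, in each comparison with 5 hpf. Of all 4747 pairs tested, 437 had such a p for CHX against 5 hpf and 607 in the controls. The log2 ratio of L to S for xbp1 was 0.95 and 0.49 under CHX, -0.04 and 0.58 in 7.5 hpf controls and 3.204 and 2.13 at 5 hpf. Both 7.5 hpf groups thus lay below the 5 hpf libraries, in which the S copy had an estimated 7.03 and 15.2 reads. The ratio changed by -1.95 ± 0.56 under CHX relative to 5 hpf (limma adjusted p = 0.143) and by -2.40 ± 0.56 in the controls (adjusted p = 0.0559), in a fit over 4747 pairs of copies. In the controls the xbp1 change was called at a pseudocount of 5 (-2.19, adjusted p = 0.032), with the strict filter (0.0228), in a fit blocked on replicate number (0.0279) and without control 7.5 hpf replicate 2 (0.0367). It was not called with no filter (0.123), in a fit to both control groups alone (0.192) or without any 1 other library (up to 0.341).

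For dnajb9 the log2 ratio of L to S was 0.85 and 1.47 under CHX, 1.62 and 1.39 in 7.5 hpf controls and 0.39 and -0.10 at 5 hpf. Each 7.5 hpf library lay above both 5 hpf libraries. The change relative to 5 hpf was 1.02 ± 0.44 under CHX (limma adjusted p = 0.482) and 1.36 ± 0.44 in controls (adjusted p = 0.188). For hspa5 the ratio changed by at most 0.18 in the 3 comparisons, and for atf4 replicates of the control groups differed by more than 2 on the log2 scale. The atf4 ratio changed by -1.47 ± 0.89 between CHX and control at 7.5 hpf (limma adjusted p = 0.852) and by -1.15 ± 0.89 between CHX and 5 hpf (adjusted p = 0.814). Between CHX and control at 7.5 hpf, 0 of the 4 pairs were called, with 0 at an unadjusted p under 0.05 in limma, as 256 of all 4747 pairs had. Over all pairs, 0% were called in that comparison, 1.66% in CHX against 5 hpf and 1.62% in the controls.

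**Figure D3:**
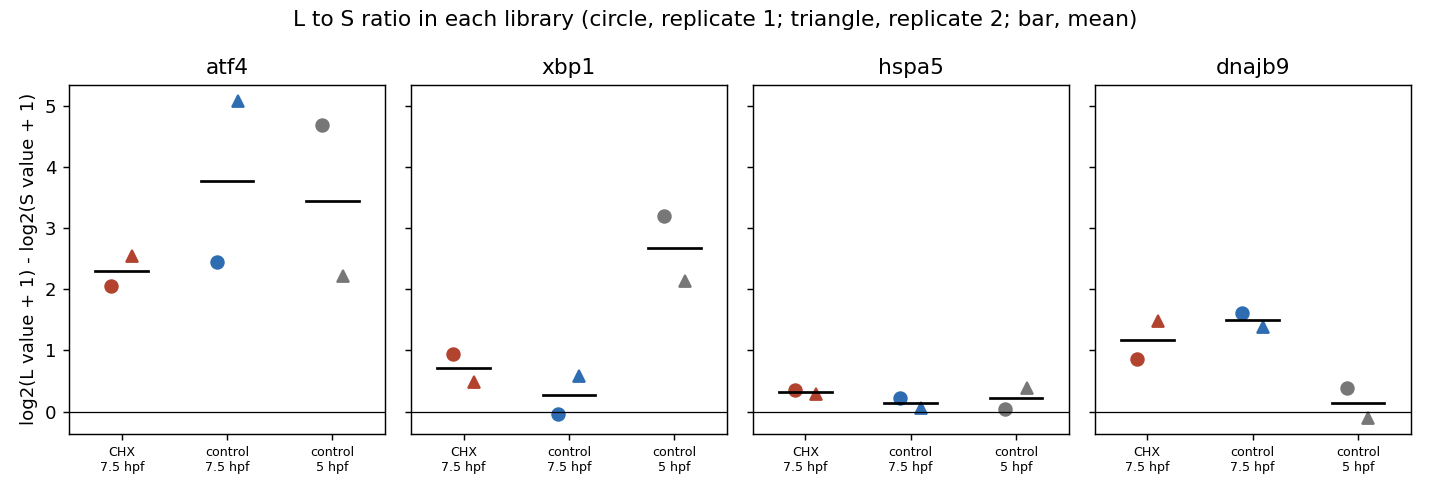
Log2 of the L value over the S value, each with 1 added (vertical axis), in the CHX 7.5 hpf, control 7.5 hpf and control 5 hpf libraries for the 4 genes with both copies past the filter; circles are replicate 1, triangles replicate 2 and bars the mean. For xbp1 the 5 hpf libraries, at 3.204 and 2.13, lie above the 4 libraries of 7.5 hpf, and for dnajb9, at 0.39 and -0.10, they lie below them.

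The rest of both pathways was described from 7 lists of sensors, translation factors, target genes, ER folding enzymes, degradation factors, ER import factors and cytosolic heat shock proteins, with 261 genes tested in all. Between CHX and control at 7.5 hpf, 0 of the 261 were called in limma, and 23 had an unadjusted p under 0.05, where 1576 of the 19149 genes tested (8.23%) had one. The list of 50 ER chaperones and folding enzymes had a median log2 fold change of -0.29 in this comparison, against 0.02 over all genes, with 44 members below 0 and 6 above. Without control 7.5 hpf replicate 2 the median was -0.18 and 35 members were below 0. hsp90b1.L, the gene of the ER Hsp90 Grp94, was at 658 and 607 under CHX and 756 and 1068 in controls of 7.5 hpf (log2 difference -0.51 ± 0.19, limma adjusted p = 0.491). manf.L, which encodes a secreted factor induced by ER stress in mammals, was at 126 and 177 under CHX and at 228 and 255 in those controls (-0.69 ± 0.27, adjusted p = 0.519). Relative to 5 hpf the list's median was -0.27 under CHX and -0.06 in the controls, in comparisons that share libraries with the first, with none of the 50 called. Both examples were chosen after their values were seen. In CHX against control at 7.5 hpf the medians of the other 6 lists lay between -0.16 and 0.07. Against 5 hpf, 3 of the 261 were called higher and 1 lower under CHX, where 5.75% and 0.256% of all genes were. In the controls 5 were called higher and 3 lower, where 5.9% and 0.715% of all genes were. These shares are no test.

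Sensors and activators of the response held 22 tested genes, of which 1 rose and 1 fell against 5 hpf, both under CHX and in controls. Of all genes 6.01% and 6.61% were called in these comparisons. eif2ak3.S, which encodes the eIF2 kinase Perk, was at 654 and 796 in CHX embryos, 595 and 772 in 7.5 hpf controls and 1161 and 1234 at 5 hpf. It fell by 0.73 ± 0.18 on the log2 scale under CHX (limma adjusted p = 0.0378; 0.12 with no filter) and fell by 0.82 ± 0.18 in the controls (adjusted p = 0.0199; 0.0797 with no filter). The CHX call was also lost with libraries scaled by trimmed means (0.0676) or on oocyte transcripts (0.0669), and without any 1 library of CHX or 5 hpf (0.145 to 0.455). In the controls the call held only when the library omitted was control 7.5 hpf replicate 2, and the other omissions gave 0.0766 to 0.144. creb3l4.L, a membrane-bound factor of the family related to Atf6, was at 442 and 292 under CHX, 699 and 554 in 7.5 hpf controls and 22 and 23 at 5 hpf. It rose by 3.94 on the log2 scale under CHX and by 4.73 in the controls (limma adjusted p = 3.46e-05 and 1.18e-05), calls that held without any 1 library. CHX stood below control at 7.5 hpf for creb3l4.L, a difference of -0.79 ± 0.31 that was not called (limma adjusted p = 0.514). The list medians were -0.10 under CHX and -0.14 in controls, against 0.02 and 0.03 over all genes.

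Among 57 tested target genes of Atf4 and Chop, 1 rose under CHX relative to 5 hpf, where 6.01% of all genes were called. In the controls 1 rose and 1 fell, where 6.61% of all genes were called. The amino acid transporter gene slc38a2.L was listed at 0 in both 5 hpf libraries, where 3 reads would have given values of 5.54 and 6.93. It was at 79 and 66 under CHX and at 316 and 61 in 7.5 hpf controls (limma adjusted p = 0.00239 and 0.000969 against 5 hpf). Its CHX values lay within the range of the 7.5 hpf controls, and the call of CHX against 5 hpf was lost without CHX replicate 1 or 2 (0.145 and 0.0937). tnfrsf10b.L, which encodes a death receptor of the TRAIL family, fell by 2.03 ± 0.42 on the log2 scale in the controls, with 65 and 54 at 7.5 hpf and 229 and 261 at 5 hpf (limma adjusted p = 0.0157). Under CHX it was at 71 and 158, and the value against 5 hpf was -1.20 ± 0.42 (adjusted p = 0.16). The call in the controls was lost without any 1 of the 4 control libraries (0.066 to 0.124). The medians of this list were 0.10 for CHX against 5 hpf and -0.07 for the controls.

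Translation factors of the eIF2 pathway (21 genes), ER folding enzymes (50) and ER-associated degradation (42) had 0 calls in limma in all 3 comparisons, with 2, 5 and 1 genes at an unadjusted p under 0.05 for CHX against control at 7.5 hpf, 3, 6 and 2 for CHX against 5 hpf, and 7, 4 and 7 for the controls. Over all genes 8.23%, 15.9% and 19.2% had such a p in these comparisons. Of 41 ER import genes, none was called for CHX against control at 7.5 hpf in limma, with 7 at an unadjusted p under 0.05. None was called for CHX against 5 hpf either, with 5 at such a p. In the controls 2 rose and 1 fell, with 3 at such a p. Of all genes 0.554%, 6.01% and 6.61% were called in these 3 comparisons. spcs3.S, of the signal peptidase complex, was at 163 and 154 under CHX, 59 and 81 in 7.5 hpf controls and 179 and 215 at 5 hpf. In the controls it fell by 1.49 ± 0.33 on the log2 scale (limma adjusted p = 0.0223), while CHX stood 1.19 ± 0.33 above the 7.5 hpf controls without being called (adjusted p = 0.281). The translocon gene sec61g.S was at 233 and 138 under CHX, 459 and 159 in 7.5 hpf controls and 37 and 0 at 5 hpf, and rose in the controls (log2 fold change 5.46 ± 1.29, limma adjusted p = 0.0311; 0.0553 at a pseudocount of 0.5 and 0.153 with no filter). Leaving out 1 library moved it from 2.84, without control 5 hpf replicate 2, to 8.08, without replicate 1. srp19.L, of the signal recognition particle, rose by 0.71 ± 0.16 in the controls (limma adjusted p = 0.0221; 0.0575 with libraries scaled on totals), at 772 and 736 under CHX, 1130 and 954 in 7.5 hpf controls and 616 and 654 at 5 hpf. Omitting a library other than control 7.5 hpf replicate 2 ended the spcs3.S and srp19.L calls (0.0863 to 0.158), and omitting one of 7.5 hpf ended that of sec61g.S (0.09 to 0.298).

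Of 30 cytosolic heat shock genes only hspa1l.S was called against 5 hpf, where 6.01% of all genes were under CHX and 6.61% in the controls. This gene of the cytosolic Hsp70 family, whose reads may be shared with near-identical copies, was at 1786 and 1577 under CHX, 1836 and 1633 in 7.5 hpf controls and 1132 and 1072 at 5 hpf. It rose by 0.61 ± 0.14 on the log2 scale under CHX (limma adjusted p = 0.029) and by 0.65 ± 0.14 in controls (adjusted p = 0.0192). With libraries scaled on totals neither was called (0.0621 and 0.0592). The CHX call was lost without any 1 library of CHX or 5 hpf (0.125 to 0.378), and that of the controls when any library other than control 7.5 hpf replicate 2 was omitted (0.0766 to 0.133).

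**Figure D4:**
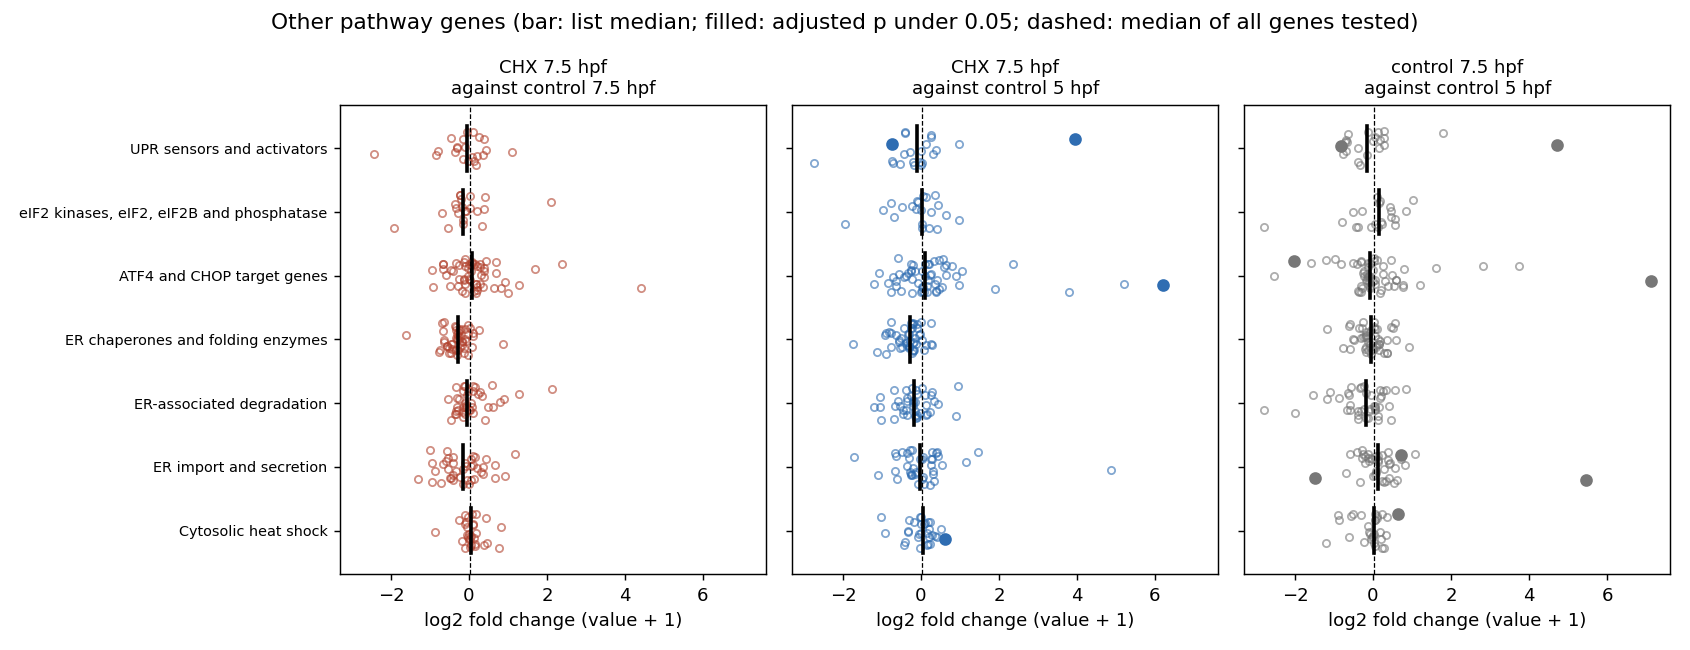
Log2 fold change (horizontal axis) of the tested genes on the 7 lists of the stress pathways in the 3 comparisons; black bars are list medians, filled points have an adjusted p under 0.05 and the dashed line is the median of all genes tested. The left panel, CHX against control at 7.5 hpf, holds no filled point, and its ER chaperone median lies at -0.29.

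The genes whose profiles over the 6 libraries were most like those of the 3 called genes were found by the root mean square difference of centred log2 values among 15524 genes with a symbol. For atf4.L the nearest were mtss1.1.L (0.0927), e2f7.S (0.113) and ndst1.S (0.129). mtss1.1.L, a regulator of actin at the membrane, was at 6450 and 5142 under CHX, 5834 and 3953 in 7.5 hpf controls and 1629 and 1774 at 5 hpf. For xbp1.S they were plekhn1.S (0.215), the retinol dehydrogenase gene rdh10.L (0.246) and cmtm5.S (0.253). For dnajb9.S they were c11orf68.L (0.169), the centrosomal protein gene cep44.L (0.212) and c7orf25.L (0.216).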

How the data were processed

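The submitters' processing notes name Salmon 0.12.0 and DESeq2 for the authors' processing, with no further detail. The deposited values are used as a score: whole numbers that the authors made, as the values themselves show, from read counts, each library scaled by its own size factor, with rounding. The sources used here do not give the genome build, the annotation or the strand setting, and no coordinates are printed. All 10 symbols matched 1 protein-coding gene in RefSeq's table of Xenopus_laevis_v10.1, and 0 of them overlapped another gene there.

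The worth of 1 read was estimated as the spacing that best matched the pattern of values up to 60. Other worths matched nearly as well in some libraries: r = 0.955 for 0.3935 against 0.963 for 1.848 in control 5 hpf replicate 1, 0.753 for 0.351 against 0.778 for 1.176 in control 7.5 hpf replicate 1, and 0.755 for 0.648 against 0.809 for 0.6865 in control 7.5 hpf replicate 2. A worth under 1 would fill every whole value, but values of 1, 3, 8 and 10 were held by 0 genes in control 5 hpf replicate 1. In control 7.5 hpf replicate 1, 52 genes had a value of 3, against 327 at 2 and 210 at 4. There were 57 genes at 10, against 262 at 9 and 233 at 11. A worth of 1.176 would skip 3 and 10, where 0.351 would not. Neither value was empty, so depths are estimates. Genes entered the test at a mean of 10 reads at the mean worth (11.9), which left 19149 of 50489. log2(value + 1) was fitted with limma 3.58.1 (R 4.3.3): 3 groups, 6 libraries, intensity trend, two-sided, with 3 residual and 7.35 prior degrees of freedom. Calls had a Benjamini-Hochberg adjusted p under 0.05 over all genes. L to S ratios were fitted over 4747 pairs in the same way, with mean abundance as the trend. The fit was also run on simulated data in which all genes shared the same setting of spread, and no result here rests on that run. Figures used matplotlib 3.10.9 and pandas 2.3.3.

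The members and gene lists were chosen with earlier results of these data known. The rule named from each list and comparison the called genes, at most the 4 with the smallest adjusted p, so that lists with no call gave no name, and for each called member the 3 nearest profiles. Alternatives were 4 other scalings, pseudocounts of 0.5 and 5, no filter or 5 times the filter, the replicate number as a block, 2 groups alone, library weights, L and S copies summed, and each library left out.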

Additional observations from a re-analysis of the deposited data

How the results depend on the processing

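No setting gave a call among the tested members or pathway genes for CHX against control at 7.5 hpf. With no filter 0% of all genes were called in this comparison, so that setting could not have given one. The same holds for some fits with a library left out. For CHX against 5 hpf, 3 members were called, and 2 with no filter. The count was 4 at a pseudocount of 5, with the replicate block and with library weights, where xbp1.L was called too. It fell when either CHX library was left out. The 4 pathway genes called there became 2 with no filter, 9 with the replicate block, 12 with library weights and 1 to 6 without 1 library, with 1 when either CHX library was left out. For the controls the 3 members became 0 with no filter, 0 in a fit to the 2 groups alone, 1 with copies summed and 0 to 3 without 1 library (3 with the replicate block). The 8 pathway genes called there became 2 with no filter, 3 with 2 groups alone, 10 with the replicate block and 2 to 13 without 1 library, with 2 when control 7.5 hpf replicate 1 was omitted and 13 when replicate 2 was. The 0 L to S ratios called in controls became 1 at a pseudocount of 5, with the strict filter and with the replicate block, and lay between 0 and 1 when a library was left out. Same-numbered replicates deviated together with r = 0.13 between CHX and 7.5 hpf controls. The r was -0.0198 between CHX and 5 hpf controls and 0.00795 between the control groups. These values do not settle whether the numbers pair the libraries. With the replicate block, 0.872% of all genes were called for CHX against control at 7.5 hpf, against 0.554% without it. Against 5 hpf the shares moved too. Under CHX, 6.01% of all genes were called in the main fit, 2.08% with no filter, 7.11% with the block and 8.88% with library weights. In the controls 6.61% were called in the main fit, 2.06% with no filter, 3.28% with 2 groups alone and 7.84% with the block. When either CHX library was left out, the CHX share against 5 hpf fell. That of the controls fell without control 7.5 hpf replicate 1 and rose without replicate 2. The pathway counts moved the same way, so they do not single out these genes.

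Direction turned only in values that were not called. hspa5.L in CHX against control at 7.5 hpf was -0.023 when libraries were scaled on oocyte transcripts. Leaving out 1 library gave, in that comparison, log2 ranges of -0.11 to 0.51 for atf4.L, -0.077 to 1.01 for xbp1.S, -0.14 to 0.16 for hspa5.L, -0.53 to 0.030 for dnajb9.L and -0.30 to 0.49 for dnajb9.S. In the controls it gave -0.56 to 2.68 for atf4.S and -0.55 to 0.011 for dnajb9.L. The L to S ratio ranged from -2.39 to 0.083 for atf4 and -0.065 to 0.28 for hspa5 in CHX against 5 hpf, and from -1.002 to 1.63 and -0.245 to 0.098 in the controls. The cause was not tested; with a library left out, a group of 1 is assumed to vary like the others. Scaling on oocyte transcripts moved the median of all genes from 0.03 to 0.18 in the controls and from 0.02 to 0.14 in CHX against 5 hpf, and the 3 called members kept direction and call under each scaling. The shallow 5 hpf libraries limit what can be said of ddit3, atf4.S and the size of the xbp1.S changes.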

Other observations

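For some genes of the target lists the CHX and control values at 7.5 hpf did not overlap, though none of them was called. How many genes of the lists or of the whole table did so was not counted. A lack of overlap therefore does not set a gene apart. The genes without overlap shown here were higher under CHX, while creb3l4.L, srp19.L, hsp90b1.L and manf.L, named above, were lower without overlap. The list of 57 Atf4 and Chop targets was split, with 32 above 0, 25 below and a median of 0.07. The 42 genes of ER-associated degradation were split too, with 18 above 0, 24 below and a median of -0.06. All genes named here were chosen after their values were seen. atf3.S, which encodes a stress-induced factor of the ATF/CREB family, was at 51 and 25 under CHX, at 0 and 2 in 7.5 hpf controls and at 0 in both 5 hpf libraries. It passed the filter on low values through the CHX group alone, so its test, which gave no call, lends no support here. In the 7.5 hpf controls 3 reads would have given values of 3.53 and 2.06. Its homeolog atf3.L was at 18 and 14 under CHX and 41 and 16 in 7.5 hpf controls. herpud1.S, which encodes an ER membrane protein of the degradation pathway, was at 67 and 41 under CHX, 21 and 21 in 7.5 hpf controls and 33 and 23 at 5 hpf (CHX against control at 7.5 hpf, adjusted p = 0.659). cebpd.S, which encodes a C/EBP factor, was at 208 and 160 under CHX and at 98 and 85 in 7.5 hpf controls (log2 difference 0.99 ± 0.36, adjusted p = 0.481).

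Degradation factors on the lists had values at 7.5 hpf below those at 5 hpf with and without CHX in some cases, none of them called. Of the 42 tested, 30 were below 0 and 12 above under CHX against 5 hpf, with a median of -0.18. In the controls 26 were below 0 and 16 above, with a median of -0.18. Both genes named next were chosen after their values were seen. erlec1.S, the gene of an ER lectin, was at 190 and 200 under CHX, 194 and 197 in 7.5 hpf controls and 318 and 308 at 5 hpf (limma adjusted p = 0.144 and 0.131 against 5 hpf). edem1.L, which encodes a mannosidase-like protein, was at 108 and 79 under CHX, 72 and 95 in 7.5 hpf controls and 222 and 159 at 5 hpf (limma adjusted p = 0.186 and 0.105).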
